A study of Rattus norvegicus with 12 samples.

Results

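Transcripts of 8 genes that mark the tissues around the brain rather than its neurons were followed across 12 RNA-seq libraries of newborn rat preoptic area, a sexually dimorphic region at the base of the forebrain. The fibrillar collagens are Col1a1 (ENSRNOG00000003897), Col1a2 (ENSRNOG00000011292) and Col3a1 (ENSRNOG00000003357), and the matrix proteoglycans are Dcn (ENSRNOG00000004554) and Lum (ENSRNOG00000004610). The others are Fn1 (fibronectin, ENSRNOG00000014288), Igf2 (a growth factor, ENSRNOG00000020369) and Ttr (transthyretin, ENSRNOG00000016275). They were chosen by identifier as markers of non-neural tissue that a dissection can carry along, with earlier results of these data known. They are 8 of the 29516 genes in each file, and all 8 passed the filter on low values that 16310 genes passed. Males and females received either zebularine (a nucleoside analogue that blocks DNA methyltransferases) or vehicle, saline containing 0.1% of what the labels write as DNMSO. Pups were dosed on postnatal days 0 and 1, and brains were collected on day 2. Each of the 4 groups (vehicle females, zebularine females, vehicle males, zebularine males) holds 3 libraries. The labels do not state whether replicates are different animals or pools, so each p-value weighs a difference against a spread that may be technical.

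The meninges are sheets of fibroblasts and vessels that cover the brain, and their fibroblasts make fibrillar collagen, decorin and lumican. Type I collagen is built from the chains of Col1a1 and Col1a2, and type III collagen from Col3a1 alone. Decorin and lumican are small leucine-rich proteoglycans that bind collagen fibrils, and fibronectin is an adhesive glycoprotein that cells also use to assemble matrix. Igf2 is an imprinted growth factor that in the brain is made chiefly by meninges, vessels and choroid plexus. Transthyretin, a carrier of thyroid hormone and of retinol-binding protein, is the most abundant secreted product of the choroid plexus, the epithelium that produces cerebrospinal fluid in the ventricles. The preoptic area borders the third ventricle. Ttr is the only gene of the 8 included for the choroid plexus, so what is said of that tissue rests on a single transcript. Because no table used here pairs the other identifiers with symbols, the labelled tissue was not checked against neuronal or other markers.

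RefSeq promoter sequences (build GRCr8) were at hand for 4 of the 8 genes: Col1a2, Lum, Igf2 and Ttr. Stretches of 3 of them are shown: Col1a2 and Lum, which were high in the same libraries, and Ttr, which followed a different order. Igf2 was also high in the libraries of Col1a2 and Lum, and its windows are not shown. All are 100 bases long, on the plus strand and written 5′ to 3′. The capitals mark 2 motifs, which do not overlap and were searched on both strands in the 250 bases before each annotated start. The first is the letters CCAAT of the CCAAT box, printed here as their reverse complement. The second is the letters TATAAA of the TATA box. Matches are by letters alone, and whether they act as promoter elements at these distances was not tested.
Col1a2, chr4:33518307-33518406, from 250 to 151 bases before the start: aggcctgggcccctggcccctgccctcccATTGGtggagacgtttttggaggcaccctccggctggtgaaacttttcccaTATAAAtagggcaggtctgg
Lum, chr7:34245506-34245605, from 200 to 101 bases before the start: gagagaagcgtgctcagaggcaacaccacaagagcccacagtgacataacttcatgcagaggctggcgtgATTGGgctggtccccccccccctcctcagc
Ttr, chr18:12218658-12218757, from 100 to 1 bases before the start: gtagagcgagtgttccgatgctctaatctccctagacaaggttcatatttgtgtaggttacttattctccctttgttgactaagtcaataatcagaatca
The first base of the CCAAT match lay 221 bases before the annotated start of Col1a2 and 130 bases before that of Lum. The letters TATAAA lay 170 bases before that of Col1a2. Neither set of letters occurred in the 250 bases of Ttr or in the 2 annotated windows of Igf2. Of 33469 rat promoter windows of this length, 34.0% hold the CCAAT letters and 12.9% the TATAAA letters, so these matches are a description only.

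Reads assigned to genes ran from 15851598 to 30474857 per library, and levels are given as RPKM (reads per kilobase of gene model, normalised for sequencing depth). Zebularine female replicate 3 differed most from the rest, with 318 genes, 1.95% of those tested, at a level at least 2-fold above every other library, where each of the other libraries held between 2 and 27 such genes. The test results below are given with all 12 libraries and, where it moves them, without this one. Each gene except Ttr rested on at least 24 reads in every library, and Ttr on between 9 and 412. Levels of different genes are compared per kilobase of the authors' gene models, which were 8043 bases for Col1a1, 24821 for Fn1 and 616 for Ttr.

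Apart from Ttr, the genes shared a step between libraries: 8 libraries sat at a common low level, and 4 libraries, all female, sat above it. The summed RPKM of the 7 genes (Col1a1, Col1a2, Col3a1, Dcn, Lum, Fn1 and Igf2) ran only from 11.5 to 16.3 over the 6 male libraries and vehicle female replicates 1 and 2. These 8 libraries were picked by that sum, so its narrow range is a description. Over them the single genes ranged 2.87-fold for Col1a1, 2.46-fold for Dcn, 2.26-fold for Lum, 1.82-fold for Col1a2, 1.75-fold for Igf2 and 1.42-fold for Col3a1 and Fn1, each above the median of 1.36-fold for all tested genes. The next libraries were vehicle female replicate 3 at 45.5, zebularine female replicate 1 at 48.7 and zebularine female replicate 2 at 58.9. Zebularine female replicate 3 reached 445, which was 7.55-fold above the next library. As a share of all reads assigned to genes, the 7 genes took between 0.0114% and 0.0140% in the low libraries and 0.225% in zebularine female replicate 3. In a bulk sample, more cells of a type and more RNA per cell cannot be told apart, and how much meningeal tissue each dissection held was not tested.

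**Figure D1:**
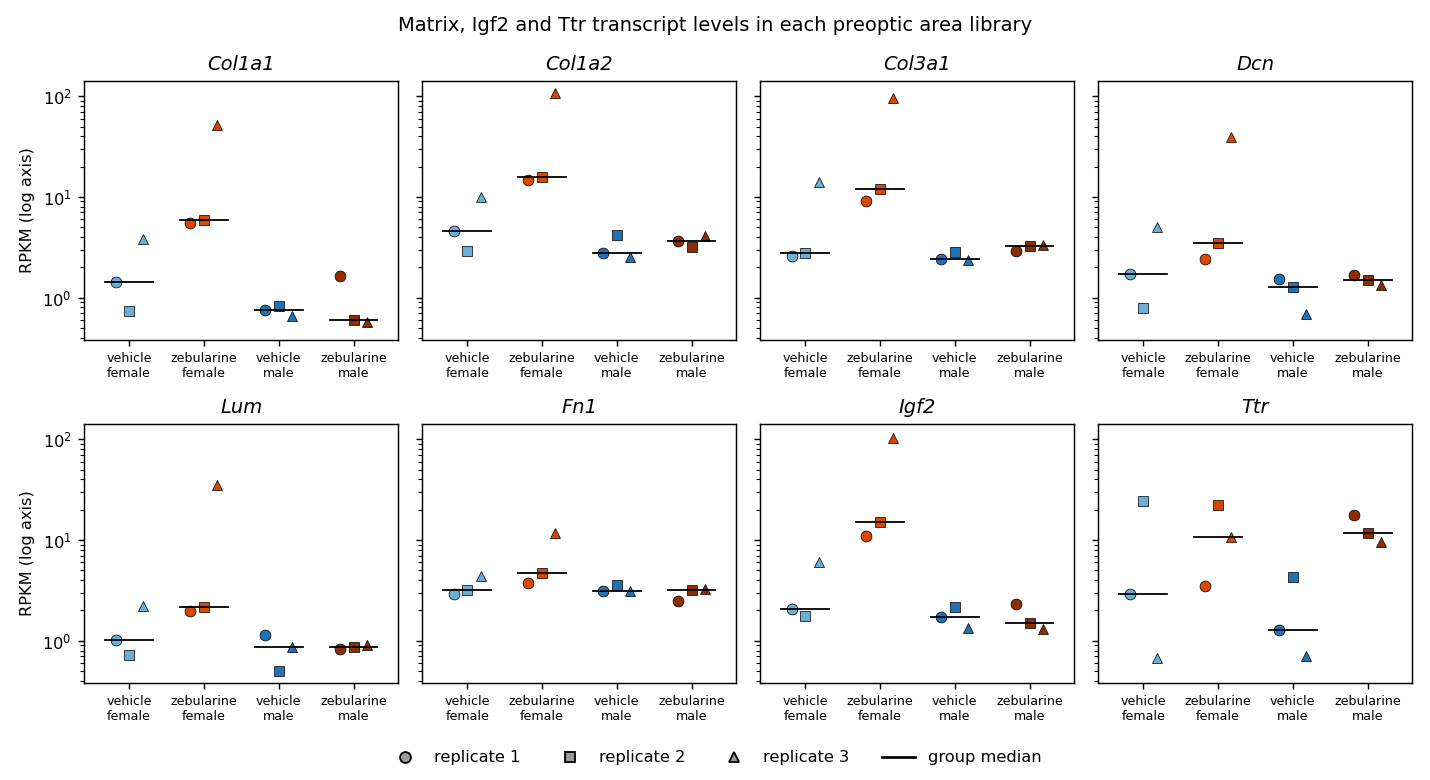
RPKM of each gene on a log axis, by group, with 1 symbol per replicate and a line at the group median. In each panel but that of Ttr the triangle of zebularine female replicate 3 is the highest point, and the 6 male libraries lie among the lower points.

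Col1a1, a chain of type I collagen, had 1.42, 0.729 and 3.79 RPKM in vehicle females and 5.54, 5.85 and 52.2 RPKM in zebularine females. In males it had 0.756, 0.820 and 0.661 RPKM under vehicle and 1.63, 0.604 and 0.567 RPKM under zebularine. All zebularine females thus lay above all vehicle females, and the male groups overlapped. Col1a2, the partner chain, had 4.59, 2.91 and 9.94 RPKM in vehicle females and 14.8, 15.6 and 108 RPKM in zebularine females. Its male levels were 2.78, 4.15 and 2.52 RPKM under vehicle and 3.63, 3.21 and 4.12 RPKM under zebularine. Its groups separated in females and overlapped in males, as for Col1a1.

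Col3a1, the chain of type III collagen, had 2.62, 2.78 and 14.1 RPKM in vehicle females and 9.11, 12.1 and 95.3 RPKM in zebularine females. Here vehicle female replicate 3 stood above zebularine female replicates 1 and 2, so the female groups overlapped. In males Col3a1 had 2.40, 2.85 and 2.36 RPKM under vehicle and 2.89, 3.24 and 3.35 RPKM under zebularine. The male groups did not overlap, by a narrow margin.

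Decorin and lumican showed the same libraries on top. Dcn had 1.69, 0.783 and 5.07 RPKM in vehicle females, 2.44, 3.52 and 39.4 RPKM in zebularine females, 1.52, 1.28 and 0.689 RPKM in vehicle males and 1.68, 1.497 and 1.34 RPKM in zebularine males. The groups overlapped in both sexes, with vehicle female replicate 3 above every library except zebularine female replicate 3. Lum had 1.02, 0.726 and 2.23 RPKM in vehicle females, 1.99, 2.16 and 34.8 RPKM in zebularine females, 1.13, 0.501 and 0.871 RPKM in vehicle males and 0.836, 0.877 and 0.908 RPKM in zebularine males. In zebularine female replicate 3, Lum was 15.6-fold above its next highest library, the largest such step of the 8 genes, and Dcn was 7.77-fold above its own.

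Fn1 varied least. It had 2.88, 3.16 and 4.38 RPKM in vehicle females, 3.71, 4.70 and 11.8 RPKM in zebularine females, 3.11, 3.56 and 3.12 RPKM in vehicle males and 2.50, 3.21 and 3.28 RPKM in zebularine males. The same 4 female libraries were the highest, with zebularine female replicate 3 at 2.52-fold above the next, and the groups overlapped in both sexes. Fibronectin is also made by endothelium and other cells of the brain, and its long gene model lowers its RPKM relative to its read number.

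Igf2 had 2.08, 1.75 and 5.998 RPKM in vehicle females and 11.04, 15.01 and 103 RPKM in zebularine females. In males it had 1.73, 2.19 and 1.33 RPKM under vehicle and 2.32, 1.51 and 1.32 RPKM under zebularine. Every zebularine female library lay above every other library of the study, and the male groups overlapped. Zebularine females had a mean of 43.0 ± 52.0 RPKM (SD, n = 3), an SD larger than the mean because of replicate 3.

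Ttr followed a different order. It had 2.94, 24.7 and 0.678 RPKM in vehicle females and 3.51, 22.4 and 10.6 RPKM in zebularine females. The highest and the lowest Ttr level of the whole study were both in the vehicle female group, in replicates 2 and 3, a 36.4-fold difference resting on 412 and 9 reads. In males Ttr had 1.27, 4.33 and 0.705 RPKM under vehicle and 17.9, 11.9 and 9.65 RPKM under zebularine, so all zebularine males lay above all vehicle males. Zebularine female replicate 3, the top library for each of the other genes, was the fifth highest for Ttr, and vehicle female replicate 3, high for collagen, was lowest for Ttr.

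**Figure D2:**
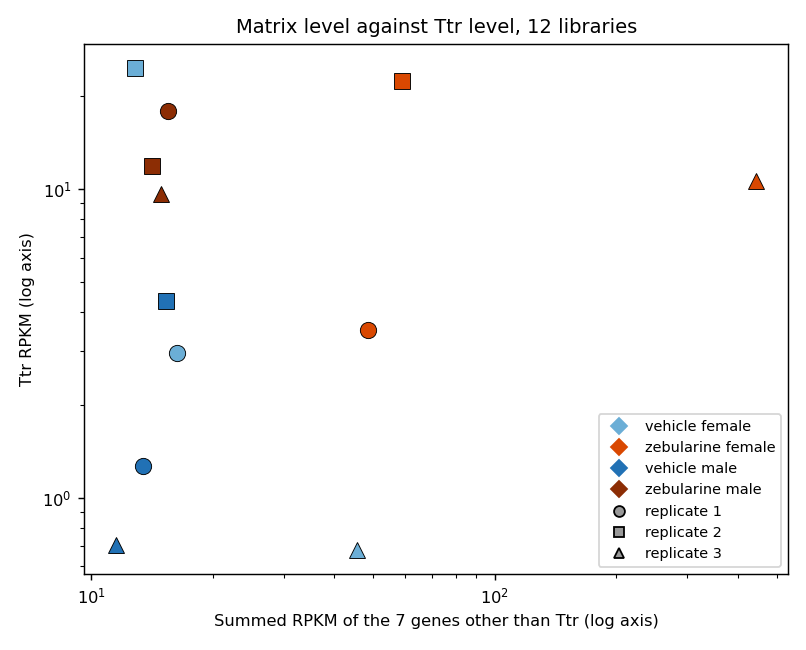
Summed RPKM of the 7 genes other than Ttr (x, log axis) against Ttr RPKM (y, log axis), 1 point per library, coloured by group. Libraries between 11.5 and 16.3 on the x axis cover nearly the whole range of Ttr, and the library at 445 lies at 10.6 RPKM of Ttr.

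Ordered by group median, Col1a1, Col1a2, Col3a1, Dcn, Lum, Fn1 and Igf2 were all highest in zebularine females. The other 3 groups overlapped with one another for each of these genes, except that the male groups of Col3a1 did not. For Ttr the order of medians was zebularine males at 11.9, zebularine females at 10.6, vehicle females at 2.94 and vehicle males at 1.27 RPKM. Ttr values of neighbouring groups overlapped in this order.

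Relative to the mean of the 6 male libraries, the female libraries differed in which genes stood out. Vehicle female replicates 1 and 2 lay between 0.587-fold and 1.69-fold of the male mean for the 7 genes other than Ttr. In vehicle female replicate 3 the largest step was that of Col3a1, 4.93-fold above the male mean, with Col1a1 at 4.51-fold, Dcn at 3.80-fold and Igf2 at 3.46-fold. In zebularine female replicate 1, Col1a1 and Igf2 led at 6.60-fold and 6.37-fold, and Col3a1 stood at 3.20-fold and Dcn at 1.83-fold. Igf2 led in zebularine female replicate 2 at 8.66-fold, followed by Col1a1 at 6.97-fold, and Col3a1 was at 4.25-fold. Zebularine female replicate 3 had Col1a1 at 62.2-fold, Igf2 at 59.5-fold, Lum at 40.8-fold, Col3a1 at 33.5-fold, Col1a2 at 31.8-fold, Dcn at 29.5-fold and Fn1 at 3.79-fold. The ratio of Igf2 to Col3a1 RPKM was 0.427 in vehicle female replicate 3 and 1.21, 1.24 and 1.08 in zebularine female replicates 1, 2 and 3. In the 8 low libraries that ratio lay between 0.395 and 0.801, so the zebularine females were above all other libraries in it. The ratio of Igf2 to Col1a1 did not separate them: it was 1.99, 2.56 and 1.97 in zebularine females, inside the range of 1.42 to 2.67 of the 8 low libraries. Both ratios were computed after the levels were seen and were not tested.

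**Figure D3:**
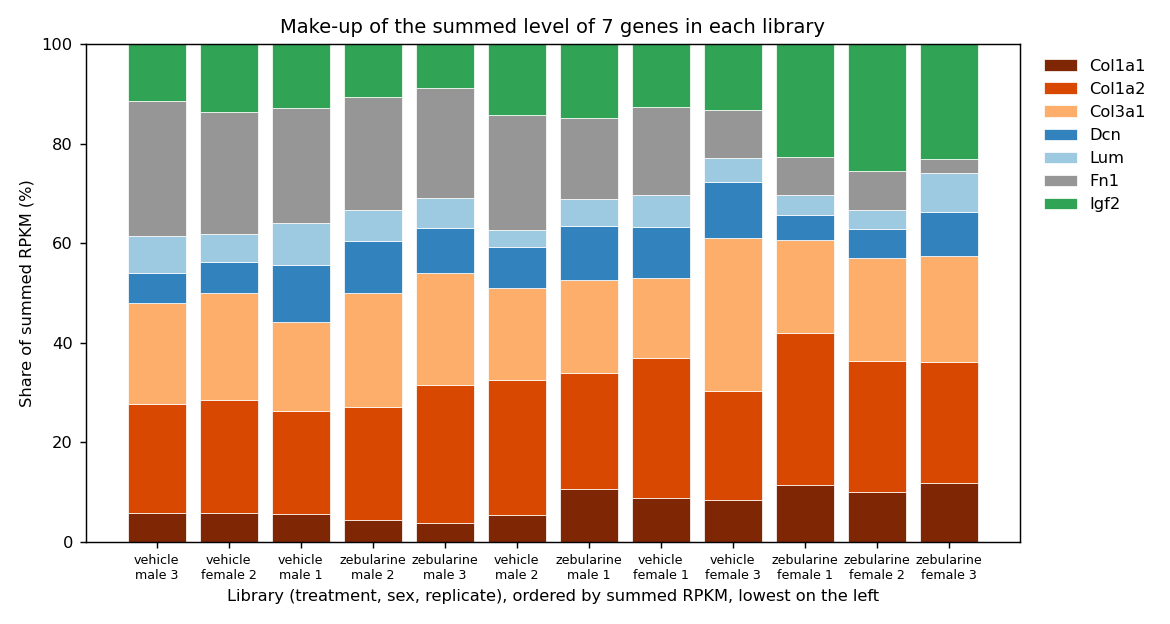
Share of each of the 7 genes in their summed RPKM, in percent, with the libraries ordered from the lowest to the highest sum. Fn1 takes between 16.2% and 27.0% in the 8 low libraries and 2.66% in zebularine female replicate 3, while Igf2 takes between 22.7% and 25.5% in the zebularine females and at most 15.0% elsewhere.

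Against all other genes of the same library, the change in rank was large. In zebularine female replicate 3, Col1a2 was above 96.4% of tested genes, Igf2 above 96.2%, Col3a1 above 95.8% and Col1a1 above 90.4%. The medians of the other 11 libraries were 34.1%, 22.6%, 28.2% and 10.5% in the same order. All genes but Ttr, 7 of the 8, had their highest level in zebularine female replicate 3, where 17.4% of all tested genes had theirs. The same 7 were at least 2-fold above every other library there, against the 1.95% of tested genes given above. As the genes were chosen with earlier results of these data known, these shares are a description only.

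Whether zebularine changed these genes was tested with limma on log2(RPKM + 0.5) over all genes, with p-values adjusted by the Benjamini-Hochberg method over 16310 genes. No gene of the 8 passed over both sexes, where 0.405% of tested genes passed in either direction. Differences over both sexes were above 0 for all 8, with a median of 1.24 against 0.0051 for all tested genes. The smallest p of the 8 was that of Igf2, whose difference was 1.48 ± 0.48 (log2, SE, limma adjusted p = 0.5002). Ttr had a difference of 1.86 ± 0.69 (SE, limma adjusted p = 0.605). At an unadjusted limma p under 0.05 were 4 of the 8 (Col1a1, Col1a2, Igf2 and Ttr), all higher under zebularine, where 4.78% of tested genes were higher and 2.78% lower. Such counts out of 8, here and below, are a description only. The genes were chosen with earlier results of these data known, and those other than Ttr were high in the same libraries. Limma-voom on reads recovered from the RPKM also passed 0 of the 8 and put 2 of them, Col1a2 and Ttr, under the unadjusted threshold. By limma-voom 798 of 16310 tested genes lay under that threshold with zebularine higher and 370 with it lower. The median of the 8 was 0.74 without zebularine female replicate 3, and the 4 genes named for limma were again under that threshold by limma. In that fit 556 of 16204 tested genes were under it with zebularine higher and 296 with it lower.

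Within females, none of the 8 passed by limma, where 0.0429% of tested genes did. For the 7 genes other than Ttr the differences were larger than over both sexes, while that of Ttr was smaller, at 1.11 ± 0.98 (SE, limma adjusted p = 0.9999). The median log2 difference of the 8 was 1.97, against 0.0050 for all tested genes. Igf2 differed by 2.98 ± 0.68 (SE, 95% interval 1.47 to 4.49, limma adjusted p = 0.211), Col1a1 by 2.55 ± 0.73 (SE, limma adjusted p = 0.439) and Col1a2 by 2.40 ± 0.64 (SE, limma adjusted p = 0.341). Under an unadjusted limma p of 0.05 lay 6 of the 8, all but Dcn and Ttr, where 4.03% of tested genes lay with zebularine higher and 1.37% with it lower. By limma-voom there were 5, where 704 of 16310 tested genes lay with zebularine higher and 165 with it lower. Col1a1, Col1a2 and Igf2 were the 3 genes whose female groups did not overlap, with zebularine higher, 3 of 8 against 5.87% of tested genes, and 0 of 8 had zebularine lower without overlap, against 3.34%.

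For the 7 genes other than Ttr, the female differences and their errors were smaller without zebularine female replicate 3. Then the female log2 differences were 2.00 ± 0.40 for Igf2, 1.52 ± 0.45 for Col1a1 and 1.47 ± 0.37 for Col1a2 (SE, limma adjusted p = 0.242, 0.734 and 0.436). Their direction and the lack of overlap between groups stayed. That outcome was fixed in advance, since leaving out a library cannot make separate groups overlap. For Col3a1 the difference was 2.10 with that library (limma unadjusted p = 0.0204) and 1.06 without it (limma unadjusted p = 0.0754), for Dcn 1.64 and 0.46, for Lum 1.84 and 0.58, and for Fn1 0.72 and 0.25. Ttr moved little, from 1.11 to 1.04, and its error was 0.98 with the library and 1.15 without it. Without the library, 3 of the 8 remained under an unadjusted p of 0.05 in females: Col1a1, Col1a2 and Igf2. In that fit 393 of 16204 tested genes lay there with zebularine higher and 210 with it lower. Without zebularine female replicate 1, Igf2 came closest to passing in any alternative run, at a log2 difference of 3.58 (limma adjusted p = 0.0667). That fit kept replicate 3 and left out the zebularine female with the lowest Igf2 level. Over all genes, 54 of 16238 then passed with zebularine higher and 2 with it lower, in place of 7 and 0.

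Within males no gene of the 8 passed by limma, and 0% of all tested genes did. The median log2 difference of the 8 was 0.17, against 0.00077 for all tested genes. With all 12 libraries in the fit, Ttr was the only gene of the 8 under an unadjusted p of 0.05, by limma and by limma-voom. There 4.14% of tested genes lay with zebularine higher and 3.43% with it lower by limma. By limma-voom 696 of 16310 tested genes lay with zebularine higher and 517 with it lower. The log2 difference of Ttr in males was 2.60 ± 0.98 (SE, 95% interval 0.45 to 4.76, limma adjusted p = 0.655). Fitted on the male libraries alone, its error was 0.50 (SE, limma adjusted p = 0.349). Ttr and Col3a1 were the genes of the 8 whose male groups did not overlap, 2 of 8 against 8.36% of tested genes with zebularine higher. With zebularine lower there were 0 of 8, against 5.97%. The difference of Col3a1 in males was 0.27 ± 0.77 (SE, limma adjusted p = 0.952), on an error shared with the female groups, and 0.27 ± 0.11 (SE, limma unadjusted p = 0.0447, adjusted p = 0.684) when fitted on the male libraries alone. Col1a1 and Igf2 differed by 0.13 and -0.03 in males, with 95% intervals from -1.48 to 1.73 and from -1.54 to 1.48. In the fit without zebularine female replicate 3, with a smaller shared error, the male intervals ran from -0.77 to 1.03 for Col1a1 and from -0.83 to 0.77 for Igf2.

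**Figure D4:**
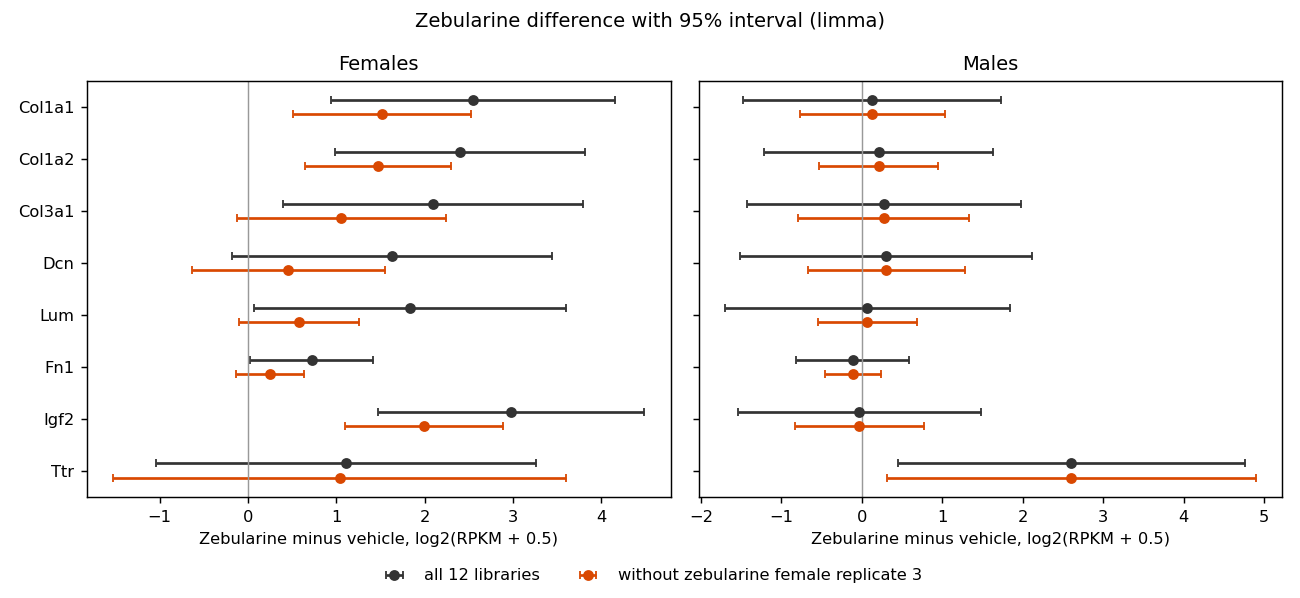
Zebularine minus vehicle difference on the log2(RPKM + 0.5) scale for each gene, in females (left) and males (right), with 95% intervals from limma, using all 12 libraries (black) or 11 without zebularine female replicate 3 (orange). In females the intervals of Col1a1, Col1a2 and Igf2 lie above 0 with both sets of libraries, and in males that of Ttr does.

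The difference between the sexes in the zebularine effect was tested directly, and none of the 8 passed, as no tested gene did (0%). Igf2 had a male minus female difference of -3.01 ± 0.97 (SE, limma adjusted p = 0.976). An unadjusted limma p under 0.05 was reached by 3 of the 8, Col1a1, Col1a2 and Igf2, all with the smaller effect in males, where 2.42% of tested genes lay, against 1.64% with the larger effect in males. By limma-voom there were 0, where 383 of 16310 tested genes lay with the smaller effect in males and 224 with the larger. The Ttr difference went the opposite way, at 1.49 ± 1.39 (SE, limma adjusted p = 0.976), and its 95% interval from -1.56 to 4.54 includes 0. Leaving out zebularine female replicate 3, the median of the 8 was -0.65 in place of -1.80, Igf2 had -2.03 ± 0.54 (SE, limma adjusted p = 0.893), and the same 3 genes had an unadjusted p under 0.05. In that fit 533 of 16204 tested genes had such a p with the smaller effect in males and 359 with the larger.

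Males and females were then compared within each treatment. Under vehicle, none of the 8 passed by limma, where 0.0123% of tested genes did, and 0 of the 8 had an unadjusted p under 0.05 by limma or limma-voom. By limma, 0.944% of tested genes had such a p with male higher and 1.14% with male lower. By limma-voom 140 of 16310 tested genes had it with male higher and 174 with male lower. All 8 had log2 differences below 0 (male lower), with a median of -0.64, against -0.0053 for all tested genes. Without vehicle female replicate 3 the median of the 8 was -0.096 and the Fn1 difference was 0.096, above 0. For Col3a1 the difference was -0.81, and it was -0.078 without vehicle female replicate 3, since the other vehicle females lay within the range of vehicle males. Under zebularine, none of the 8 passed, where 0.0307% of tested genes did. The 7 genes other than Ttr had unadjusted p under 0.05 with male lower, where 6.62% of tested genes had (4.45% with male higher), and 5 of the 8 did by limma-voom. By limma-voom 993 of 16310 tested genes did with male lower and 639 with male higher. Igf2 showed -3.60 ± 0.68 (SE, limma adjusted p = 0.236), Col1a1 -3.22 ± 0.73 and Col1a2 -2.85 ± 0.64 (SE, limma adjusted p = 0.336 for both). Ttr showed 0.39 ± 0.98 (SE, limma adjusted p = 0.902). Without zebularine female replicate 3 the median of the 8 was -1.25 in place of -2.40, Igf2 had -2.62 ± 0.40 (SE, limma adjusted p = 0.105), and Dcn no longer had an unadjusted p under 0.05, which left 6 of the 8. In that fit 875 of 16204 tested genes had such a p with male lower and 791 with male higher. The comparisons within females and between treated sexes share the zebularine female libraries, so their values are not separate evidence.

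Errors of this size go with a wide spread between libraries of the same group. Around the group means, the SD of log2(RPKM + 0.5) was 1.40 for Ttr, 1.18 for Dcn, 1.15 for Lum, 1.11 for Col3a1, 1.04 for Col1a1, 0.98 for Igf2, 0.92 for Col1a2 and 0.45 for Fn1. The median over all tested genes was 0.14. Between 91.0% (for Fn1) and 99.9% (for Dcn and Ttr) of tested genes had a smaller SD. Counting error at each gene's mean read number would give between 0.03 (Fn1) and 0.12 (Ttr) on that scale. Those means include zebularine female replicate 3, where all genes but Ttr had their most reads. Counting error was larger in libraries with fewer reads, down to 24 for Lum and 9 for Ttr. Without zebularine female replicate 3 the SD of Lum was 0.37 and that of Col1a1 0.58, while that of Ttr was 1.499. The median over all tested genes was then 0.13. The share of tested genes with a smaller SD was 72.9% for Fn1, 89.2% for Lum and 92.9% for Col1a2, and higher for the other genes.

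**Figure D5:**
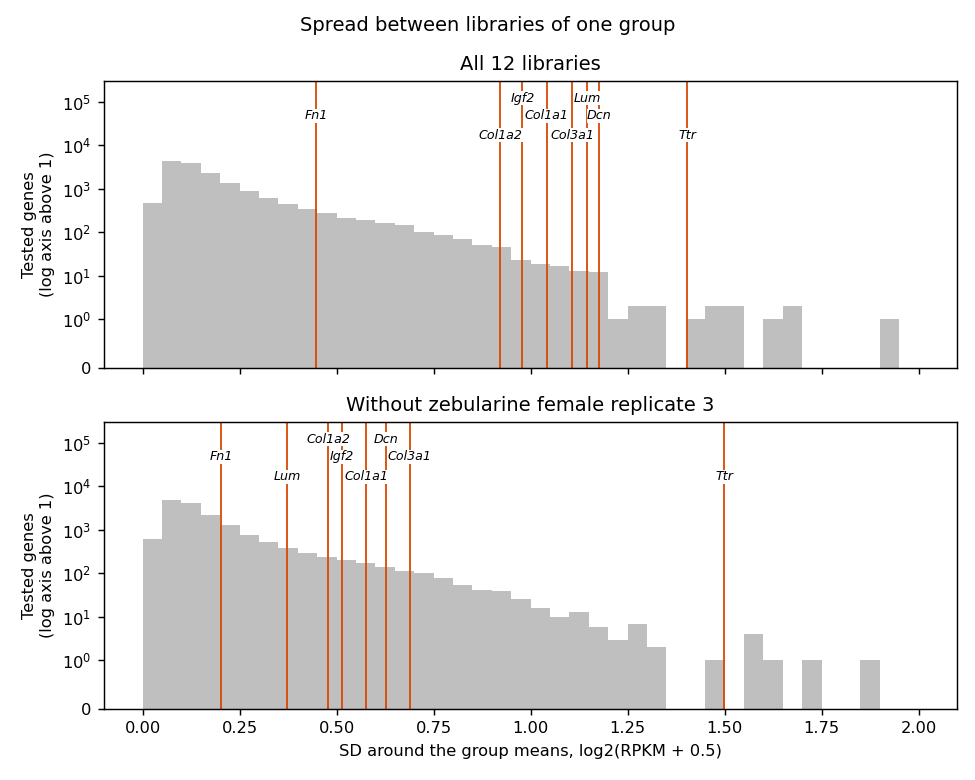
Number of tested genes (y, log axis above 1) by their SD around the group means on the log2(RPKM + 0.5) scale (x), with all 12 libraries (top) and without zebularine female replicate 3 (bottom). Orange lines mark the 8 genes. Ttr stays near 1.40 to 1.499 in both panels, and the lines of the other genes move left in the lower one.

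The highest over lowest RPKM among the 12 libraries was 92.0-fold for Col1a1, 77.8-fold for Igf2, 69.6-fold for Lum, 57.1-fold for Dcn, 42.8-fold for Col1a2, 40.5-fold for Col3a1, 36.4-fold for Ttr and 4.74-fold for Fn1. The median was 49.99-fold for the 8 genes and 1.42-fold for all tested genes above 0 in every library. Without zebularine female replicate 3 these medians were 6.77-fold and 1.39-fold. Igf2 then had 11.3-fold, Col1a1 10.3-fold and Fn1 1.88-fold, and Ttr kept 36.4-fold, since its extremes lie in vehicle females.

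Because the libraries fell into a low set and 4 others, no test of correlation between the 8 genes is given: over all 12 it would rest on the clusters, and within the low set the libraries share a similar sum by choice. The joint pattern of collagen, proteoglycan and Igf2 transcripts is described by the library values above. Over the male libraries alone, Pearson r had a median of 0.11 over the 21 pairs of genes other than Ttr. It ran from -0.80 to 0.82, with 11 pairs above 0, and was not tested.

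Other genes with the profile most like Col1a1 over the 12 libraries were ENSRNOG00000029792 and ENSRNOG00000025230, at Pearson r of 0.99 and 0.99 among 14363 genes with a mean of at least 1 RPKM. ENSRNOG00000029792 had 33.7 RPKM in zebularine female replicate 3, 3.83 and 6.57 in the other zebularine females, 2.61 in vehicle female replicate 3 and between 0.202 and 0.730 in the 8 low libraries. Without zebularine female replicate 3 their r with Col1a1 was 0.97 and 0.96. With Col1a1, 124 genes had r over 0.9, 0.863% of those compared, and 12 had without that library. For Ttr the most similar genes were ENSRNOG00000009331 (r = 0.83) and ENSRNOG00000013572 (r = 0.80), and no gene had r over 0.9 with all 12 libraries. With 11 libraries, leaving out zebularine female replicate 3, 1 gene did, ENSRNOG00000003289 (r = 0.92). ENSRNOG00000009331 ran only from 1.59 to 2.64 RPKM, so the wide range of Ttr had no close counterpart there. These r are measures of likeness across libraries that fall into clusters, and carry no test.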

How the data were processed

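The authors deposited RPKM for 29516 Ensembl genes, 1 file per library. TopHat is named without a version in the submitters' processing notes; for the counter, build, annotation and strand setting the answer is "not given in the sources used here". RPKM steps gave whole reads (within 0.01 of a read for 23427 genes, 100% of those above 0) and gene model lengths. Replicate libraries differed beyond sampling noise (chi-square over its degrees of freedom, 5.69 to 20.9).

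Genes reaching 0.5 RPKM in 3 or more libraries were fitted as 4 group means on log2(RPKM + 0.5) with limma 3.58.1 (R 4.3.3, eBayes with trend), two-sided, at an adjusted p threshold of 0.05. Other values were computed with Python 3.11.15, numpy 2.4.6 and pandas 2.3.3. The fit was tested on simulated data.

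Named genes are the 8 members and, for Col1a1 and Ttr, the 2 other genes of highest r. The members and lists were chosen with earlier results of these data known. Marker and pathway lists written by symbol are not analysed here, since the gene name table matched 0 identifiers; symbols of the 8 members came with their identifiers. A correlation between members over all 12 libraries was planned and is not reported, since the libraries fall into clusters. Alternatives were 2 other scalings, pseudocounts, filters, smaller fits, blocks, limma-voom and leaving out each library.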

Additional observations from a re-analysis of the deposited data

How the results depend on the processing

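None of the 8 genes passed in any of the 6 comparisons under the alternatives run, 22 for each comparison of 2 groups and 21 for zebularine over both sexes and for the sex difference of its effect (lowest limma adjusted p = 0.0667). The spread between libraries, as highest minus lowest log2(RPKM + 0.5), depended on zebularine female replicate 3. Over the fits that left out each library it ran from 2.57 to 5.62 for Col1a1, 2.41 to 5.17 for Col1a2, 2.35 to 5.07 for Col3a1, 2.23 to 5.07 for Dcn, 1.45 to 5.14 for Lum, 0.79 to 2.04 for Fn1 and 3.09 to 5.83 for Igf2, the low ends without that library. Some differences changed sign, none of them called, and the cause was not tested. For male minus female under vehicle, Fn1 was 0.063 with the block by file name number; leaving out each library, it ran from -0.17 to 0.096 (the latter without vehicle female replicate 3) and Ttr from -2.10 to 0.11 (without vehicle female replicate 2). Under zebularine, Ttr ran from -0.27 (without zebularine female replicate 1) to 0.98. For zebularine in males, Igf2 was 0.029 with limma-voom and ran from -0.22 to 0.11 (0.11, 0.029 and 0.098 without vehicle male replicate 2 and zebularine male replicates 2 and 3), Lum from -0.12 (without vehicle male replicate 2) to 0.23, and Col1a1 from -0.20 (without zebularine male replicate 1) to 0.30. Over both sexes, the exact permutation test within sex (400 relabellings, two-sided, unadjusted) gave p = 0.05 for Col1a1, 0.02 for Col1a2, 0.105 for Col3a1, 0.185 for Dcn, 0.135 for Lum, 0.35 for Fn1, 0.06 for Igf2 and 0.05 for Ttr.

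The replicate numbers of the titles did not clearly pair the libraries. Correlated deviations over 0.1 were seen in 5 of 18 same-numbered pairs (highest r 0.295) and 8 of 36 pairs of different number. Only 4 of 12 libraries were most like one of their own number. By the numbers of the file names these were 2 of 12 and 11 of 42 pairs, and 3 of 12 libraries. With the replicate block by title, 0 of the 8 genes passed, and over all genes the calls for zebularine over both sexes numbered 9 in place of 66. With the block by file name number, 0 of the 8 passed and those calls numbered 6. The median female difference of the 8 was then 2.77 in place of 1.97. The lowest Ttr level rests on 9 reads, where 3 reads correspond to 0.226 RPKM; such limits cover counting error only.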
